A study of Homo sapiens with 10 samples.

Results

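Rb occupancy was described at 10 genes whose products assemble and fire replication origins: CDC45, GINS1, GINS2, GINS3, GINS4, ORC1, ORC6, CDC7, DBF4 and TICRR. They were 10 of the 20020 protein-coding gene symbols in GENCODE release 44. Their peaks were taken by position alone: peaks that overlapped 2000 bp upstream to 500 bp downstream of any transcript start of a gene, and peaks outside all promoters whose nearest protein-coding start belonged to it. The rule gave 89 promoter peaks in 12 merged regions and 2 non-promoter peaks in 2 regions, so 91 of the 87112 Rb peaks and 14 of the 22935 merged regions of the series.

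Chromatin occupancy of the retinoblastoma protein Rb was profiled by CUT&RUN, an assay that sequences the fragments cut free by a nuclease at sites where the antibody sits. The cells were the ovarian cancer lines OVCAR3 and Kuramochi, models of the high-grade serous type, both labelled as wild-type. They received either the solvent DMSO or the CDK2 inhibitor INX-315 (INX315 in the labels) at 300 nM for 2 days. Each of the 4 groups had 2 Rb libraries, which the study's methods give as individual biological replicates of an experiment performed once, and each line had 1 IgG2a control library from DMSO-treated cells. Peak lists carry no expression values, so the identity of the lines could not be checked against marker genes.

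Replication origins are licensed in G1 when the origin recognition complex (ORC) loads the MCM helicase with CDC6 and CDT1. Firing in S phase needs the kinase CDC7 with its activator DBF4, and cyclin-dependent kinase activity acting with TICRR, which together bring CDC45 and the 4-subunit GINS complex to MCM to form the active CMG helicase. Many genes of this machinery are classical targets of E2F transcription factors, to which Rb binds in its hypophosphorylated state, and CDK2 with cyclin E is one of the kinases that phosphorylate Rb.

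The promoter sequences of 9 of the 10 genes were in a RefSeq table of windows from 250 bases before to 50 after a start (GRCh38.p14), with 13 windows in all. The E2F string was any of TTTCCCGC, TTTCGCGC, TTTGCCGC and TTTGGCGC on either strand, and it occurred in the windows of 4 of those 9 genes, against 3.31% of all 35116 windows. The first is a count of genes with the string in any of their windows and the second a share of single windows. The 4 genes were GINS1, GINS2, GINS3 and CDC7, and their stretches with the string are shown first because they are the promoters of this group in which the letters of a textbook Rb–E2F target can be read. Positions count from 1 at the transcript start with no 0, capitals mark the E2F string (and, in GINS1, also the CCAAT string ATTGG), and each stretch is written 5′ to 3′ along its gene's strand.
GINS1 (plus strand, chr20:25407658-25407687, positions −15 to 15): ctATTGGctagctttgttcgGCGCCAAAgc
GINS2 (minus strand, chr16:85688955-85689044, positions −90 to −1): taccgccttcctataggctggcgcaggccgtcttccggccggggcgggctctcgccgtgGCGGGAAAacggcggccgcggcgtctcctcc
GINS3 (plus strand, chr16:58392451-58392480, positions −20 to 10): gatgcgtccccgggcGCGGGAAAcgagttt
CDC7 (plus strand, second start, chr1:91501022-91501107, positions −90 to −5): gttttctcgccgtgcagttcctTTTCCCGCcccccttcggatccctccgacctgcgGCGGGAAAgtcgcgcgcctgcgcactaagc

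The string lay at positions 6 to 13 in GINS1, −31 to −24 in GINS2 and −5 to 3 in GINS3. CDC7 had none in the window of its first start and 2, at −68 to −61 and −34 to −27, before its second start at 91501112, and 0.125% of all windows held 2 or more. No E2F string was in the windows of CDC45, ORC1, ORC6, DBF4 or TICRR.

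TICRR is shown for another reason: its window held 5 copies of the CCAAT string (CCAAT or ATTGG, the core of the NF-Y site), a number reached by 0.316% of all windows. CDC45 held 4, and 0.940% of all windows held 4 or more. At least 1 CCAAT string was in the windows of 6 of the 9 genes against 34.6% of all windows, so by presence alone the string is common. Here too genes are set beside single windows. The capitals below mark CCAAT.
TICRR (plus strand, chr15:89575249-89575458, positions −220 to −11): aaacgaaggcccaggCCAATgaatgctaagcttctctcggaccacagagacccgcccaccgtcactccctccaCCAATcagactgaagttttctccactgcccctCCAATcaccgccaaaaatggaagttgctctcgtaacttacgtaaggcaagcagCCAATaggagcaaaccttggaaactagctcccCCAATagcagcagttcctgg

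The CHR string (TTTGAA or TTCAAA, the core of the cell cycle homology region) was in the window of DBF4 only, across its start at −3 to 3, and in 15.2% of all windows.

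Rb occupied the promoters of these genes already under DMSO. In Kuramochi, 10 of 10 genes had a promoter peak in both DMSO libraries, against 24.8% of all protein-coding genes. In OVCAR3 it was 8 of 10 against 26.7%. GINS3 and GINS4, which encode subunits of GINS, were the exceptions: each lacked a peak in OVCAR3 DMSO replicate 1 and had one in replicate 2. Under INX-315 all 10 were bound in both replicates of both lines, against 55.3% of protein-coding genes in OVCAR3 and 53.0% in Kuramochi. With each list cut to the shortest Rb list of its line the counts were 9 under INX-315 in each line, 8 in OVCAR3 DMSO and 10 in Kuramochi DMSO. A promoter peak in all 8 Rb libraries was found for 8 of the 10 genes and for 18.8% of protein-coding genes. None of the 10 was gained, that is bound under INX-315 with no promoter peak in either DMSO library, whereas 16.1% of protein-coding genes were gained in OVCAR3 and 13.9% in Kuramochi. Presence was not tested, since 2 against 2 libraries within a line cannot reach the threshold. The IgG2a lists, of 257 peaks in OVCAR3 and 195 in Kuramochi, held 0 peaks at these promoters. Only 25 and 12 of those peaks lay on the main chromosomes. As 1.56% and 1.03% of the lists overlapped any promoter, 0 at 10 promoters carries little information.

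The absence of GINS3 and GINS4 from OVCAR3 DMSO replicate 1 is a statement about a peak call and not about an empty promoter. Peaks at promoters in that library had as few as 5 fragments at the summit. In replicate 2, GINS3 had 10 fragments at its summit (95% exact Poisson interval 4.80 to 18.4) and GINS4 had 14 (7.65 to 23.5). Without replicate 1, 10 of 10 genes had a promoter peak in OVCAR3 under DMSO.

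The summits lay close to the transcript starts. For 10 of 10 genes the median summit over libraries was within 200 bp of the start of the MANE Select transcript, the representative transcript of a gene. CDC7 had the most stable summit, between 46 and 147 bp downstream of its start in the 8 libraries. CDC45 had the least stable, with summits at −663 to 134 bp from its start. By annotation the median summit fell in non-coding exon sequence for CDC45, CDC7, DBF4, GINS1, ORC1 and TICRR, in coding exon sequence for GINS3, in an intron for GINS2, and outside the gene's transcripts for GINS4 and ORC6.

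**Figure D1:**
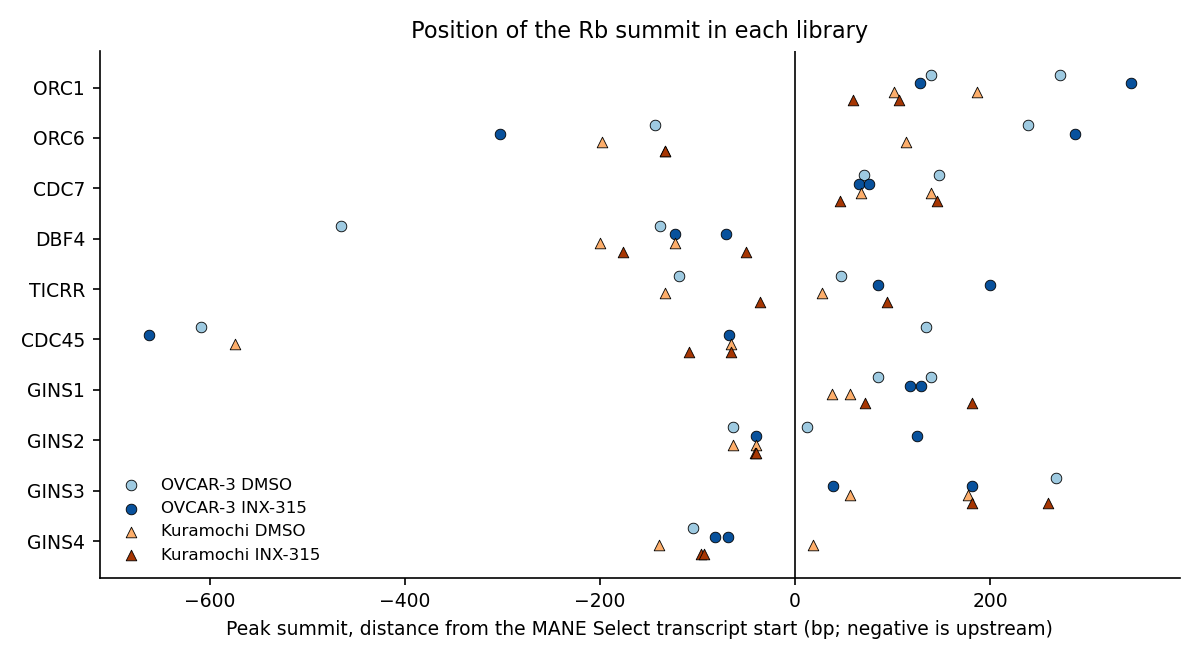
Position of the Rb peak summit in each library. The horizontal axis gives the distance from the MANE Select transcript start in bp (negative is upstream), the 10 genes are rows, and each symbol is 1 library (circles OVCAR3, triangles Kuramochi, pale DMSO, dark INX-315); CDC45 summits spread over 797 bp, those of CDC7 over 101 bp.

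Several of these promoters face a neighbour, and peak position could not assign the signal to 1 gene. The DBF4 peak also overlapped the promoter of SLC25A40 in all 8 libraries, with a SLC25A40 start 2 bp and a DBF4 start 125 bp from the median summit. The ORC6 peak overlapped VPS35, whose nearest start was 8 bp from the median summit against 117 bp for ORC6. ORC1 shared its peak with PRPF38A (nearest starts 98 bp for ORC1 and 313 bp for PRPF38A) and CDC45 with UFD1 (5 bp for CDC45 and 629 bp for UFD1). The CDC45 distances hold for the median summit only. The MANE starts of CDC45 and UFD1 lay 727 bp apart. In OVCAR3 DMSO replicate 1, OVCAR3 INX-315 replicate 1 and Kuramochi DMSO replicate 1 the summit lay toward UFD1, at −609, −663 and −574 bp from the CDC45 MANE start. The CDC45 heights were thus not all read at 1 position. Both genes of each pair were within promoter distance in all 8 libraries. The peaks of CDC7, GINS2, GINS3, GINS4 and TICRR, and that at the GINS1 MANE start, overlapped no other protein-coding promoter.

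GINS1 had a further region, called in all 8 libraries, at an alternative transcript start upstream (chr20:25389540-25391214). Its median summit was at −16890 bp from the MANE start, 225 bp from a GINS1 start and 30 bp from a start of ABHD12, which lies on the opposite strand. Both GINS1 regions were called in 8 libraries and touched a GINS1 start, so the rule for choosing a gene's region tied. The region at the MANE start stands for GINS1 here, a choice made after the values were seen, and the upstream region is given beside it. CDC45 also had a small second region (chr22:19477806-19478111) in 3 of the 8 libraries, with 5 to 9 fragments at the summit.

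Strength was measured as summit height, the number of fragments at the summit divided by the library's genome-wide background (mean fragments per base, 0.216 to 0.502 over the 8 Rb libraries). At the main region of each gene, fragments at the summit ranged from 9 at TICRR to 164 at CDC7, and at 9 fragments the 95% exact Poisson interval was 4.12 to 17.1, counting error only. Each value below is a height in multiples of that background, in replicate order, and is followed by the mean ± SD of 2 libraries.

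ORC1 encodes the largest subunit of ORC and its peak (chr1:52403745-52405197) was one of the strongest of the group. In OVCAR3 its height was 42.4 and 67.8 under DMSO (55.1 ± 17.9 SD, n = 2) and 140.3 and 178 under INX-315 (159 ± 26.9, n = 2). In Kuramochi it was 76.4 and 110.6 under DMSO (93.5 ± 24.2, n = 2) and 205 and 259 under INX-315 (232 ± 38.5, n = 2). The INX-315 libraries were above the DMSO libraries of the same line without overlap, by 2.89-fold in OVCAR3 and 2.48-fold in Kuramochi. By the −log10 p-value of the peak caller, and not by height, ORC1 ranked between the 85.3 and 96.6 percentile of peaks in each list.

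ORC6 encodes the smallest ORC subunit, and its region (chr16:46688358-46690453) was among the widest, with peaks of 1488 to 2096 bp. OVCAR3 gave 28.3 and 35.9 under DMSO (32.1 ± 5.37, n = 2) and 88.1 and 145.0 under INX-315 (116.5 ± 40.2, n = 2). Kuramochi gave 27.0 and 52.7 under DMSO (39.8 ± 18.2, n = 2) and 111 and 176 under INX-315 (144 ± 45.9, n = 2). The groups did not overlap in either line, and the means differed 3.63-fold in OVCAR3 and 3.61-fold in Kuramochi.

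CDC7, the kinase that phosphorylates MCM to start firing, had the highest Rb peak of the 10 genes in 7 of the 8 libraries, the upstream GINS1 region aside. Its region was chr1:91500218-91501685. In OVCAR3 its height was 88.9 and 85.7 under DMSO (87.3 ± 2.26, n = 2) and 179 and 212 under INX-315 (195.5 ± 22.8, n = 2). In Kuramochi it was 157 and 200.1 under DMSO (179 ± 30.3, n = 2) and 405 and 551 under INX-315 (478 ± 103, n = 2). The Kuramochi heights exceeded those of OVCAR3 under the same treatment, and INX-315 was above DMSO without overlap in both lines. By the −log10 p-value of the peak caller, CDC7 ranked between the 97 and 99.9 percentile of peaks in each list.

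DBF4, the regulatory subunit that activates CDC7, had a peak shared with SLC25A40 (region chr7:87875617-87877268). OVCAR3 heights were 44.5 and 57.8 under DMSO (51.1 ± 9.45, n = 2) and 114 and 219 under INX-315 (166 ± 73.9, n = 2). Kuramochi heights were 38.2 and 60.6 under DMSO (49.4 ± 15.8, n = 2) and 109 and 125 under INX-315 (117 ± 11.5, n = 2). Groups did not overlap in either line. OVCAR3 INX-315 replicate 2 gave the highest DBF4 value of all 8 libraries.

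TICRR, the origin firing factor that recruits CDC45 through TOPBP1 once phosphorylated by cyclin-dependent kinases, had one of the lower peaks under DMSO (region chr15:89575110-89576383). In OVCAR3 it stood at 26.3 and 33.9 under DMSO (30.1 ± 5.39, n = 2) and at 75.0 and 90.3 under INX-315 (82.7 ± 10.8, n = 2). In Kuramochi it stood at 20.2 and 36.9 under DMSO (28.5 ± 11.8, n = 2) and at 79.0 and 111 under INX-315 (95.1 ± 22.7, n = 2). The groups did not overlap in either line, with folds of means of 2.75 and 3.33.

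CDC45, a subunit of the CMG helicase, had a broad peak of 1082 to 1921 bp (region chr22:19478549-19480469). OVCAR3 values were 28.3 and 39.9 under DMSO (34.1 ± 8.19, n = 2) and 78.3 and 104.6 under INX-315 (91.5 ± 18.6, n = 2). Kuramochi values were 31.4 and 44.8 under DMSO (38.1 ± 9.42, n = 2) and 59.3 and 83.4 under INX-315 (71.3 ± 17, n = 2). No groups overlapped, but the Kuramochi fold of 1.87 was the second lowest of the 10 genes in that line, above GINS3.

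GINS1 at its MANE start (region chr20:25407336-25408082) had narrow peaks of 224 to 701 bp. OVCAR3 gave 46.5 and 33.9 under DMSO (40.2 ± 8.90, n = 2) and 75.0 and 133 under INX-315 (104 ± 41.1, n = 2). Kuramochi gave 24.7 and 29.0 under DMSO (26.8 ± 3.01, n = 2) and 59.3 and 60.2 under INX-315 (59.7 ± 0.665, n = 2). The groups did not overlap, with folds of 2.59 and 2.23.

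The upstream GINS1 region, at the ABHD12 start, was stronger. OVCAR3 gave 52.5 and 85.7 under DMSO (69.1 ± 23.5, n = 2) and 235 and 376 under INX-315 (305 ± 99.6, n = 2). Kuramochi gave 31.4 and 42.1 under DMSO (36.8 ± 7.55, n = 2) and 146 and 185 under INX-315 (165.5 ± 28.0, n = 2). Its folds, 4.42 in OVCAR3 and 4.50 in Kuramochi, were the highest of any region of the 10 genes called in all 8 libraries, with no overlap of groups.

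GINS2 (region chr16:85688426-85689526) had its summit 13 bp from the E2F string printed above, measured from the median summit. The E2F strings printed for the other genes lay farther from the median summit. The distances were 92 bp at GINS1 (MANE start), 124 and 158 bp at CDC7 and 182 bp at GINS3. OVCAR3 heights were 32.3 and 43.9 under DMSO (38.1 ± 8.15, n = 2) and 81.6 and 116.5 under INX-315 (99.0 ± 24.7, n = 2). Kuramochi heights were 40.4 and 57.9 under DMSO (49.2 ± 12.4, n = 2) and 148 and 167 under INX-315 (157 ± 13.1, n = 2). The groups did not overlap, with folds of 2.60 in OVCAR3 and 3.20 in Kuramochi.

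GINS3 (region chr16:58392357-58393073) was among the lowest in the group. In OVCAR3 it had no peak in DMSO replicate 1, 19.9 in replicate 2, and 32.6 and 83.2 under INX-315 (57.9 ± 35.8, n = 2). In Kuramochi it gave 24.7 and 34.2 under DMSO (29.5 ± 6.73, n = 2) and 46.9 and 46.3 under INX-315 (46.6 ± 0.431, n = 2). The INX-315 values lay above the DMSO values present, and the Kuramochi fold of 1.58 was the lowest of the 10 genes.

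GINS4 (chromosome 8, MANE start 41529261) had no peak in OVCAR3 DMSO replicate 1 and 27.9 in replicate 2, against 84.8 and 143 under INX-315 (114 ± 40.9, n = 2). In Kuramochi it gave 22.5 and 26.3 under DMSO (24.4 ± 2.73, n = 2) and 66.7 and 78.7 under INX-315 (72.7 ± 8.52, n = 2). The INX-315 values lay above the DMSO values present, and the Kuramochi fold was 2.98.

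**Figure D2:**
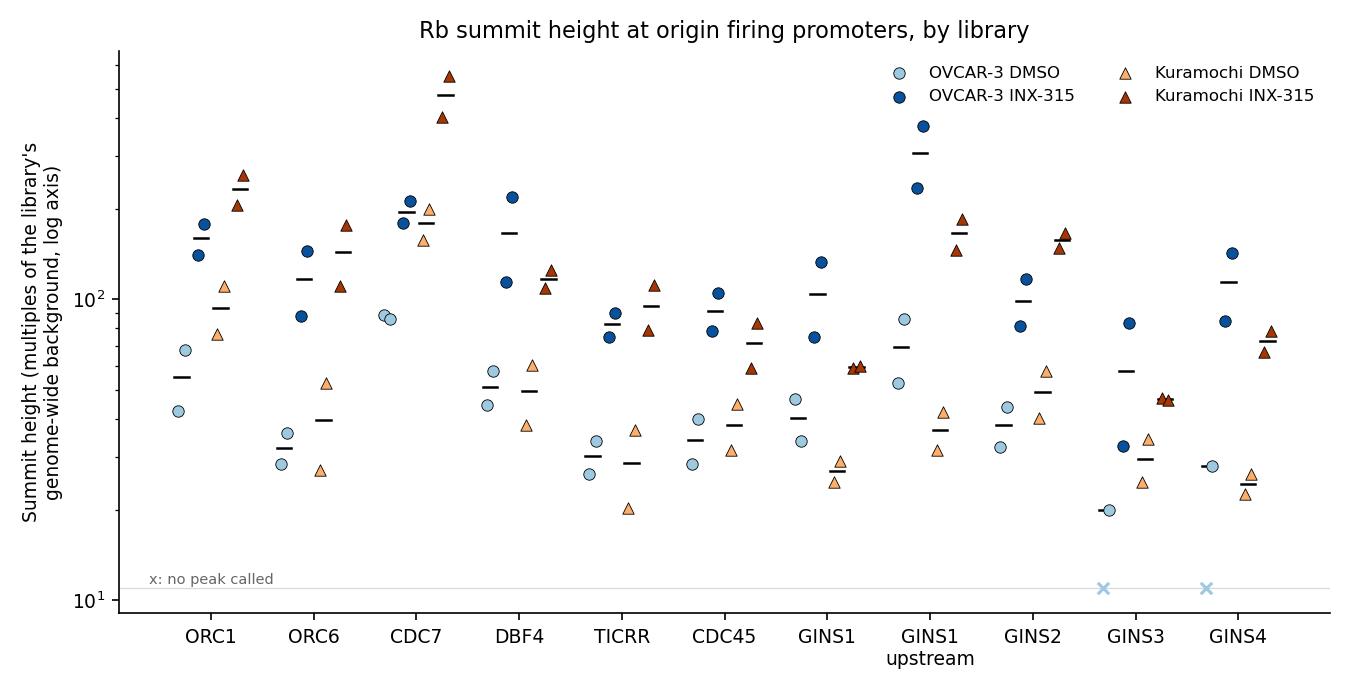
Rb summit height at each promoter by library, in multiples of the library's genome-wide background (log axis). Symbols are libraries (circles OVCAR3, triangles Kuramochi, pale DMSO, dark INX-315), short bars are means of the libraries with a peak and crosses mark no called peak; in each line the dark symbols lie above the pale ones for every gene, and CDC7 in Kuramochi reaches 551.

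For all 10 genes the INX-315 heights lay above the DMSO heights present in both lines, but that is also the state of most regions. GINS3 and GINS4 had only 1 DMSO height in OVCAR3 and are not among the regions counted next. Among the 3273 regions called in all 8 libraries, 99.0% had both INX-315 heights above both DMSO heights in OVCAR3 and 97.3% in Kuramochi. The library medians over these regions were 28.3 and 33.9 in OVCAR3 DMSO, 88.1 and 133 in OVCAR3 INX-315, 29.2 and 47.4 in Kuramochi DMSO, and 101 and 116 in Kuramochi INX-315. The difference of these medians on the log2 scale, averaged over the lines, was 1.67 (exact two-sided permutation p = 0.0556 over 36 arrangements, the smallest this design can give). In bulk samples, more Rb per promoter and more cells with Rb at the promoter cannot be told apart, and neither can be told apart here from a library with a higher share of fragments in peaks.

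The heights were then tested in the 8 genes with a region in all 8 libraries, in a fit by limma over all 3273 regions with Benjamini-Hochberg adjustment at 0.1. As an average over the lines, 8 of 8 were called higher under INX-315, where 99.5% of all regions were, and the same held for 8 of 8 in OVCAR3 (98.5% of regions) and 8 of 8 in Kuramochi (95.2%). The log2 changes ran from 1.17 (SE 0.306, adjusted p = 0.000151) at CDC45 to 1.86 (SE 0.306, adjusted p = 4.34e-09) at ORC6, and their median was 1.45 against 1.66 over all regions. Between them came GINS1 at 1.25, CDC7 at 1.29, ORC1 at 1.44, DBF4 at 1.46, GINS2 at 1.54 and TICRR at 1.62. These adjusted p-values are too small, because the regions of a library share its shift and each group had 2 libraries. In Kuramochi the CDC45 change of 0.91 lost its call without DMSO replicate 1 (0.65, adjusted p = 0.207) and without INX-315 replicate 2 (0.66, adjusted p = 0.280), and the GINS1 change of 1.16 with the fold enrichment as deposited (0.71, adjusted p = 0.169). In a fit of the 4519 regions called in all 4 Kuramochi libraries, 4250 regions were called higher. There GINS4 was higher by 1.57 on the log2 scale (SE 0.428, adjusted p = 0.000596) and GINS3 by 0.68 (SE 0.420, adjusted p = 0.112, not called).

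Because the shift of all regions was so large, each library was also centred on its median region, so that a change is relative to the typical region. The centring takes 1 constant per library from every region, so a negative value says only that a gene lies below the typical region. On that scale 7 of the 8 genes were negative, with GINS1 taken at its MANE start, as were 1703 of all 3273 regions. The heights of these genes over the genome-wide background were higher under INX-315. CDC45 was lower than the typical region by 0.51 on the log2 scale (relative log2 change −0.51, SE 0.190, adjusted p = 0.0619 by limma) and CDC7 by 0.39 (−0.39, SE 0.130, adjusted p = 0.0353), and both passed the threshold. The other 6 did not, with GINS1 at −0.43, ORC1 at −0.23, DBF4 at −0.21, GINS2 at −0.14, TICRR at −0.05 and ORC6 at 0.19. Of all 3273 regions 14.7% were called lower and 9.35% higher than the typical region, and 2 of 8 genes called lower is to be read against that share. Of the 8 fits that left out 1 library, the CDC45 call was lost in 5 (without OVCAR3 DMSO replicate 2, either OVCAR3 INX-315 replicate, Kuramochi DMSO replicate 1 or Kuramochi INX-315 replicate 1, adjusted p = 0.105 to 0.224). The CDC7 call was lost in 4 (without OVCAR3 DMSO replicate 1, OVCAR3 INX-315 replicate 2, Kuramochi DMSO replicate 1 or Kuramochi INX-315 replicate 1, adjusted p = 0.107 to 0.190). GINS1 was called lower without OVCAR3 DMSO replicate 2 (−0.61, adjusted p = 0.0494) and without Kuramochi DMSO replicate 2 (−0.55, adjusted p = 0.0798).

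The upstream GINS1 region moved in the other direction on the relative scale. It was higher than the typical region by 0.49 (SE 0.152, adjusted p = 0.0236 by limma), where GINS1 at its MANE start stood at −0.43 (SE 0.205, adjusted p = 0.151). The difference between these 2 regions was not tested. The call was kept in 6 of 8 fits with 1 library left out and missed without OVCAR3 INX-315 replicate 2 (adjusted p = 0.101) and without Kuramochi INX-315 replicate 2 (adjusted p = 0.111).

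**Figure D3:**
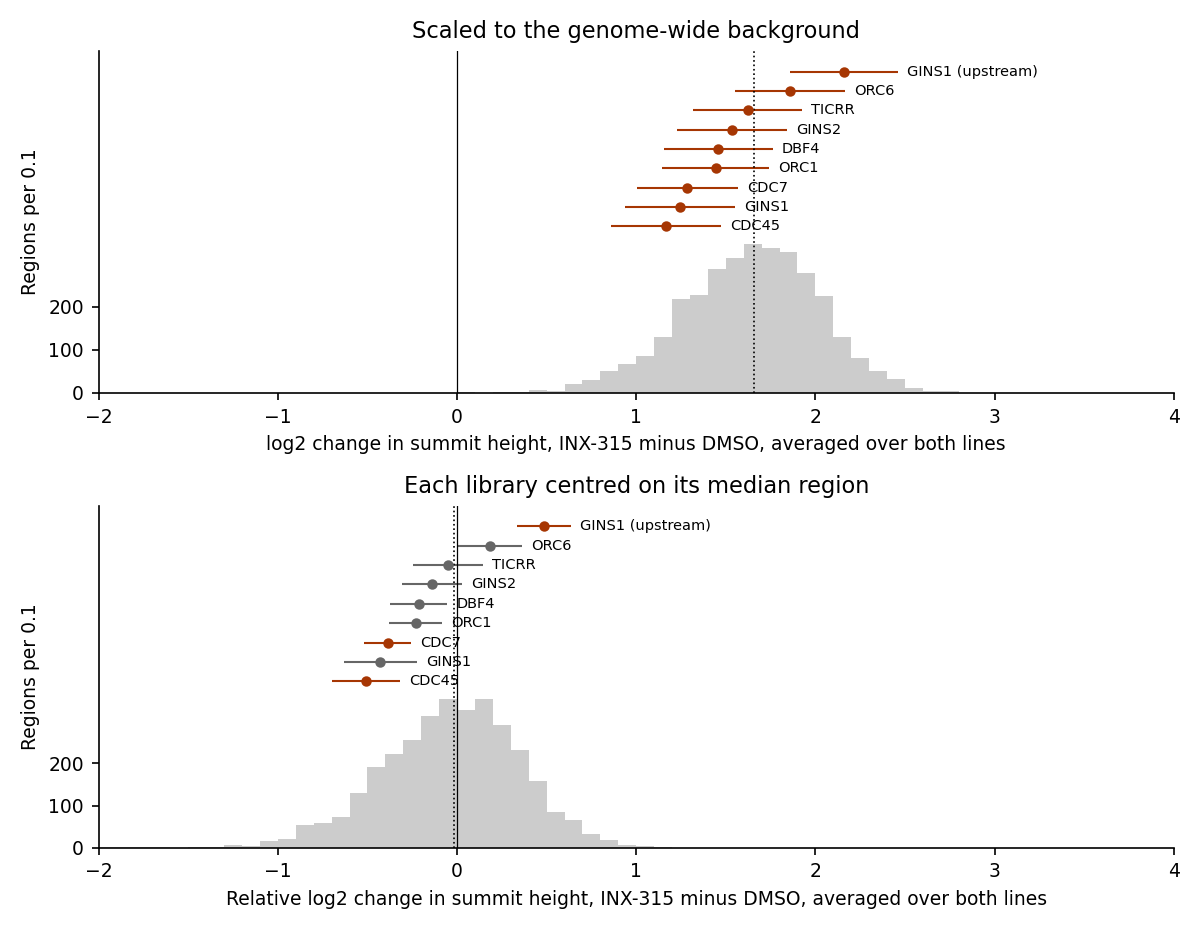
Log2 change in summit height, INX-315 minus DMSO, averaged over both lines. Grey bars count the 3273 regions per 0.1, the dotted line is their median, points are the 9 regions of 8 genes with SE bars, brown where the adjusted p is under 0.1; on the upper scale all 9 lie above 0, on the lower, centred scale CDC45 and CDC7 lie at −0.51 and −0.39 and the upstream GINS1 region at 0.49.

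The height before treatment goes along with the relative change across regions. Over the 3273 regions the Pearson r between the log2 change and the mean log2 height under DMSO was −0.252 and Spearman's rho −0.219, given as a description because both quantities hold the DMSO height and all regions share 8 libraries. The tenth of regions highest under DMSO had a median change of 1.43 and the tenth lowest 1.76. CDC7 was at the 98.5 percentile of DMSO height and CDC45 at the 56.4 percentile. The part of this relation in the CDC7 result was not tested.

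Whether the lines responded differently was tested as the OVCAR3 change minus the Kuramochi change. None of the 8 genes passed (0 of 3273 regions by limma, 92 of them and 0 of the 8 genes at an unadjusted p under 0.05). The differences ran from −0.33 (SE 0.612) at GINS2 to 0.52 (SE 0.612) at CDC45 on the log2 scale, so differences of this size lie within the error of 2 libraries per group. On the relative scale CDC7 was lower than the typical region in OVCAR3 by 0.65 (−0.65, SE 0.184, adjusted p = 0.0236 by limma) and stood at −0.13 (SE 0.184, adjusted p = 0.724) in Kuramochi, with a difference of −0.52 (SE 0.260, adjusted p = 0.508).

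The E2F string was sought in the 200 bp around each summit. Of 78 summit windows of the 10 genes 16 held it (20.5%), against 3.77 to 6.55% of all promoter peaks per library, and windows of 1 gene share their sequence. GINS2 had it in 7 of 8 windows, GINS1 in 4 of 8, CDC7 in 3 of 8 and GINS3 in 2 of 7, the same 4 genes as in the RefSeq windows. The CCAAT string was in 27 windows (34.6%) against 17.4 to 22.3% of all promoter peaks. It was in 6 of 7 windows of GINS4, in 5 of 8 of TICRR and of ORC6, and in 4 of 8 of CDC45 and of GINS1. The CHR string was in 2 windows, both of DBF4.

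Non-promoter Rb peaks nearest to these genes numbered 2. Over all genes, 81.4 to 93.0% of the Rb peaks of a library overlapped a promoter. The number of non-promoter peaks per gene was not computed for other genes, so the count is a description only. GINS2 had 1 non-promoter peak (chr16:85683445-85683653) with its midpoint 4476 bp from the nearest start, and GINS3 had 1 (chr16:58336937-58337316), 30917 bp away. Both were in Kuramochi INX-315 replicate 1 alone, each with 4 fragments at the summit and a height of 9.88. By the −log10 p-value of the peak caller they were at the 3.88 and 0.745 percentile of that list.

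The other genes of origin licensing and firing put these values in place, from lists compiled with earlier results of these data known. Of the other ORC genes, ORC2, ORC3 and ORC4 had a promoter peak in all 8 libraries. ORC5 and LRWD1, which encodes an ORC-associated protein, had none in either Kuramochi DMSO library, 1 in the 2 OVCAR3 DMSO libraries, and peaks in all 4 INX-315 libraries. ORC2, ORC3 and ORC4 were called higher with log2 changes of 1.40, 1.72 and 2.09 (adjusted p = 4.84e-06, 4.22e-08 and 7.64e-11 by limma), and none of the 3 was called on the relative scale, where they stood at −0.27, 0.05 and 0.42.

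Of 12 other firing genes 8 were bound in all 4 groups. MTBP, the partner of TICRR, POLE2 and POLE3, subunits of the leading-strand polymerase, and DBF4B, an alternative activator of CDC7, were not. MTBP lacked a peak in 1 OVCAR3 DMSO library, POLE3 in 1 Kuramochi DMSO library and POLE2 in 1 DMSO library of each line, whereas DBF4B had none under DMSO and 3 peaks in the 4 INX-315 libraries. In the average over the lines the 8 tested were all called higher (median log2 change 1.39), as 99.5% of all regions were. Of these 8, 4 were called lower than the typical region, against 14.7% of all regions, and the median relative change of the 8 was −0.28. The 4 were MCM10 at −0.80 (adjusted p = 0.00946), TOPBP1 at −0.69 (adjusted p = 0.00647), WDHD1 at −0.43 (adjusted p = 0.0864) and DONSON at −0.35 (adjusted p = 0.0924), all by limma. RECQL4 stood at −0.14. By line, TOPBP1 was at −1.09 on the relative scale in Kuramochi (adjusted p = 0.00904 by limma) and at −0.28 in OVCAR3 (adjusted p = 0.553). The difference between the lines, OVCAR3 minus Kuramochi, was 0.81 (SE 0.357, adjusted p = 0.454 by limma) and was not called. The TOPBP1 change over the genome-wide background was not called in Kuramochi (0.45, adjusted p = 0.302). MCM10 and TOPBP1, an MCM-binding firing factor and the scaffold to which TICRR binds, had log2 changes of 0.87 and 0.99 over the genome-wide background.

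The licensing genes, which encode the helicase subunits MCM2 to MCM7 with CDC6, CDT1 and the CDT1 inhibitor geminin (GMNN), were bound in all 4 groups in 9 of 9 cases. Averaged over the lines, their median log2 change over the genome-wide background was 0.97, and 9 of 9 were called higher, as 99.5% of all regions were. Within a line, CDT1 (adjusted p = 0.434 by limma) and MCM6 (adjusted p = 0.162) were not called in OVCAR3, nor MCM2 (adjusted p = 0.274) and MCM7 (adjusted p = 0.115) in Kuramochi. On the relative scale their median was −0.71, with 8 of 9 called lower, against 2 of 8 and a median of −0.22 for the 10 genes described here and 14.7% and −0.02 over all regions. CDT1 at −1.14 (adjusted p = 0.000238 by limma) and MCM2 at −1.06 (adjusted p = 0.000244) were the lowest, and GMNN at −0.12 was the licensing gene not called. The licensing genes, CLSPN and TIMELESS were named after their values were seen. Of the 3 fork protection genes TIPIN lacked a peak in 1 OVCAR3 DMSO library, and of the 2 tested CLSPN stood at −0.90 (adjusted p = 2.6e-07) and TIMELESS at −0.20 (adjusted p = 0.345). The lists were not tested against each other.

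**Figure D4:**
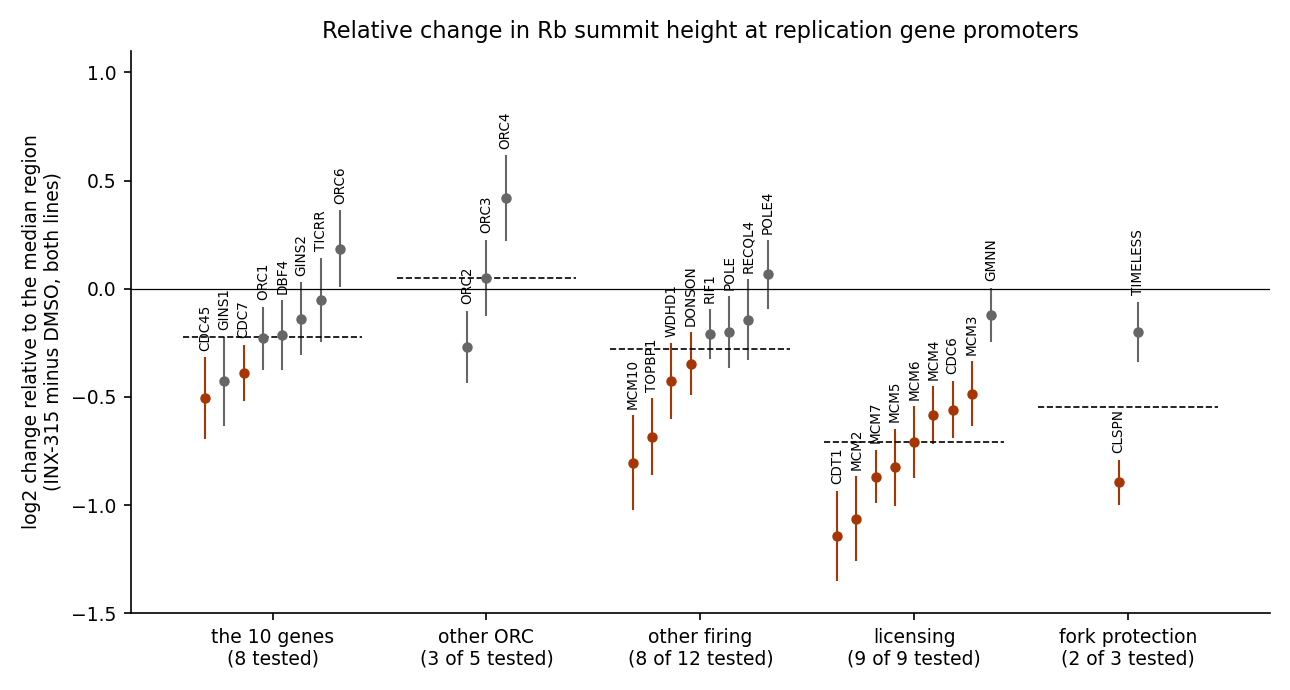
Relative log2 change in summit height (INX-315 minus DMSO, both lines, each library centred on its median region) for the tested genes of 5 lists. Points are genes with SE bars, brown where the adjusted p is under 0.1, and dashed lines are list medians; the median is −0.22 for the genes described here and −0.71 for licensing genes, whose lowest value is CDT1 at −1.14.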

How the data were processed

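Rb and IgG2a CUT&RUN libraries were described from 1 deposited narrowPeak list per library. Per the study's methods and the submitters' processing notes, reads were trimmed with BBDuk, aligned to hg38 with Bowtie2 (2.3.4.1) and filtered for blacklisted and mitochondrial reads, duplicates were kept, and peaks were called per library against IgG with MACS2 (2.2.7.1, q-value 0.05). The deposited columns used were the fold enrichment (a ratio made by the authors' peak caller), the −log10 q-value and −log10 p-value columns as deposited, and the peak and summit positions. Spike-in reads were not used.

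In this caller the fold enrichment is (fragments + 1)/(background + 1), and the same 2 quantities set a Poisson p-value, so the whole number of summit fragments and the local background were solved from both (relative tolerance 3e-05). It succeeded for 100% of peaks, with 1 solution for at least 98.8% per library. The lowest background of a library is its genome-wide mean and served as depth. Promoters were 2000 bp upstream to 500 bp downstream of GENCODE release 44 starts, with 1 bp of overlap counted. Peaks overlapping by 1 bp were merged over the 8 lists. Log2(fragments/background) of regions called in all 8 libraries was fitted with limma 3.58.1 (R 4.3.3, trend, 4 group means). Benjamini-Hochberg adjustment was over all regions, with a threshold of 0.1. The fit was first tested on simulated data with independent noise for each region and no library-wide shift. That test could not show how the fit handles the shift shared by the regions of a library. A region of a gene was that called in most libraries, ties by distance from a start. Groups and replicate numbers came from the labels. Python 3.11.15 was used elsewhere.

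The 10 genes, the pathway lists and the rule for named genes (the 10 genes, the other ORC genes, up to 10 genes of the remaining lists that were not bound in all groups or were called, and genes sharing a peak) were chosen with earlier results of these data known. As nearly all genes were called, those not bound in all groups were named first and then genes in list order. Alternatives covered the q-value, list length, promoter span, scaling, centring, the replicate block and leaving out each library.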

Additional observations from a re-analysis of the deposited data

How the results depend on the processing

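Centring each library on its median region changed the counts of calls, and other choices changed single results. With centring, genes called higher went from 8 to 0 in the average and in each line, and regions called higher from 3255 to 306 in the average (482 lower), from 3225 to 151 in OVCAR3 (257 lower) and from 3115 to 135 in Kuramochi (247 lower). The gene counts take GINS1 at its MANE start. With centring, the tied upstream GINS1 region was called higher in the average (0.49, adjusted p = 0.0236 by limma) and in Kuramochi (0.63, adjusted p = 0.0698). In OVCAR3 it was not called (0.34, adjusted p = 0.363). Centring moves all regions of a library alike, and 1703 of 3273 regions were negative in the average. Of the genes described, those with a negative value were, in the average, CDC45 −0.51, GINS1 −0.43, CDC7 −0.39, ORC1 −0.23, DBF4 −0.21, GINS2 −0.14 and TICRR −0.052. In OVCAR3 they were CDC7 −0.65, GINS1 −0.47, GINS2 −0.43, CDC45 −0.38, TICRR −0.34, ORC1 −0.25 and DBF4 −0.17. In Kuramochi they were CDC45 −0.64, GINS1 −0.38, DBF4 −0.26, ORC1 −0.21 and CDC7 −0.13. Whether that shift is occupancy or library quality cannot be told apart here.

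With 1 library left out, added after seeing the data for the centred scale, the relative change of CDC45 ran from −0.58 to −0.43 (adjusted p 0.0540 to 0.224), that of CDC7 from −0.48 to −0.30 (0.0124 to 0.190), that of GINS1 from −0.61 to −0.25 (0.0494 to 0.472), that of the upstream GINS1 region from 0.38 to 0.60 (0.00746 to 0.111) and that of TICRR from −0.13 to 0.030. Over the genome-wide background, the Kuramochi call of CDC45 was lost without DMSO replicate 1 or INX-315 replicate 2 (0.65 and 0.66), and that of GINS1 with fold enrichment as deposited (0.71).

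Whether replicate numbers pair the libraries was not settled. Across regions, deviations of same-numbered libraries correlated at −0.0457 in OVCAR3 and −0.00744 in Kuramochi. That correlation cannot see a shift common to all regions of a library. Replicate 2 had the higher library median in each of the 4 groups, as printed above. The SE of the average change was smaller with a replicate block for all 8 genes, such as 0.244 against 0.306 at CDC45. With the replicate block 8 genes and 3261 regions were called higher in the average, and no call of these genes changed. Genes with an E2F string in a summit window numbered 4, 5 with windows of 400 bp, and 9 with 1 mismatch allowed, a looser string that 37.9 to 45.4% of all promoter peaks held. The gene counts take any summit window of a gene, whereas that share is per peak. CDC45 and GINS4 held the looser string in 1 window each. With lists cut to the shortest of a line, 9 genes were bound under INX-315 in each line. The 2 non-promoter regions became 0 at a q-value of at most 0.001 and with lists cut to the shortest of a line.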
